A study of Rattus norvegicus with 10 samples.

Results

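The genes described here encode 10 chaperones and folding enzymes of the endoplasmic reticulum (ER): Hspa5, Hsp90b1, Calr, Canx, Pdia3, Pdia4, Pdia6, Dnajc3, Dnajb9 and Dnajb11. They were taken by name, as all probe sets that the platform annotation pairs with one of these symbols alone, which gave 13 of 31042 probe sets and 10 of 14217 genes. RNA was measured on 10 rat expression arrays, 5 from axons of embryonic day 16 dorsal root ganglion neurons and 5 from axons of adult ones. In both stages ganglion explants had been kept for 4 days in chambers with compartments, and axons of over 1 cm were taken from the outer compartment. No genotype or treatment differed between the groups by the labels, and no strain, adult age or pooling of animals is stated there.

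The ER is where membrane and secreted proteins fold. Hspa5 (BiP) is its Hsp70 chaperone and works with DnaJ co-chaperones, calnexin and calreticulin hold newly glycosylated proteins, and the protein disulfide isomerases form and reshuffle disulfide bonds. When unfolded proteins build up, the sensors of the unfolded protein response raise transcription of many of these genes. Axons contain smooth ER along their length, and mRNAs of several of these chaperones are known to be present and translated in axons.

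Part of this response works through the ER stress element, a promoter sequence read as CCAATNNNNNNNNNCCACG and bound by the factors NF-Y and Atf6. The RefSeq promoter windows of build GRCr8, from 250 bases before to 50 after a gene start, covered 8 of the 10 genes. The element was present on either strand in 5 of these 8, Hspa5, Hsp90b1, Calr, Canx and Dnajc3, and Hsp90b1 had it at 2 places. Over all genes it was present in 0.0657% of 33469 windows and in 0.0947% of 18999 protein-coding genes. The shorter ER stress element II, ATTGG and CCACG with 1 base between them, ends in the same 5 letters. It was found in Dnajb11 alone of the 8, where no full-length element overlapped it, and in 0.0508% of all windows. The sequences are shown because 5 of the 8 genes with a window share the full element and Dnajb11 has the shorter one. Each is given 5′ to 3′ on the strand of its gene with the element in capitals.
Hspa5: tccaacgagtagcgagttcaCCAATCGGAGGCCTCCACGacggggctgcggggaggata
Hsp90b1: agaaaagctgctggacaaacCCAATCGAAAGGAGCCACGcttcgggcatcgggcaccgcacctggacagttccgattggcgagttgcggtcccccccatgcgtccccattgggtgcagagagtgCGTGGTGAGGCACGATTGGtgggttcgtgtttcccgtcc
Calr: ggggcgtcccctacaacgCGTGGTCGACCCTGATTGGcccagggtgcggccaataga
Canx: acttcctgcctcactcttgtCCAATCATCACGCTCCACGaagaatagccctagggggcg
Dnajc3: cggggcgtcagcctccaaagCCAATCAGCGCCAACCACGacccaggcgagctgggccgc
Dnajb11: tgtgatgtcccaggcggcgATTGGCCCACG

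These stretches lie at chr3:38452953-38453011 (plus strand) for Hspa5, chr7:23012327-23012489 (minus) for Hsp90b1, chr19:40213117-40213173 (plus) for Calr, chr10:35158049-35158107 (minus) for Canx, chr15:102432514-102432572 (plus) for Dnajc3 and chr11:91672800-91672829 (minus) for Dnajb11. The element of Hspa5 began 43 bases before the annotated start and that of Dnajc3 133 bases before it. In Hsp90b1 the copies began 176 and 72 bases before the start, the nearer one on the opposite strand. In Canx and Calr they began 230 and 232 bases before it, in Calr on the opposite strand. The shorter element of Dnajb11 began 10 bases before the start and ended on the start base. Pdia4 and Dnajb9 held neither form of the element in this window. Another sequence of the response, TGACGTGG, was in 0 of the 8 windows and in 0.595% of all windows. A match in letters is a description of the window and not evidence of binding in these axons, which the arrays do not measure.

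The measured differences of all 10 genes pointed to higher values in adult axons, but 0 of 10 passed the threshold of an adjusted p under 0.05 (limma with Benjamini-Hochberg adjustment over 31042 probe sets). Across all genes 1.26% passed it, 0.612% higher and 0.647% lower in adult samples. The median difference of the 10 genes was 1.09 on the log2 scale and that of all 14217 genes was -0.0009, and 49.9% of all genes had a difference above 0. At an unadjusted limma p under 0.05 there were 4 of the 10, Hspa5, Calr, Pdia4 and Pdia6, all higher in adult samples, against 6.28% of all genes in that direction. By the exact permutation test over arrays 2, Hspa5 and Pdia4, had an unadjusted p under 0.05 with adult higher, against 5.35% of all genes. That test could pass no gene after adjustment, since its smallest possible p, 0.0079, became 0.31. The 10 genes share the same arrays, so their common direction is not 10 independent observations.

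Several measures of the arrays differed along with the stage or between arrays and bear on every value below. The poly-A labelling controls lay between 2.00 and 2.65 (log2) on embryonic and between 7.75 and 11.99 on adult arrays, and a 5S ribosomal RNA control between 7.43 and 10.32 on embryonic and 2.72 and 5.62 on adult arrays, so that an effect of labelling cannot be told apart from one of stage. The standard deviation of all values was wide (1.95 to 2.07) on embryonic replicates 1 and 5 and adult replicates 4 and 5, and narrow (1.49 to 1.70) on the other 6 arrays. Here and below, a gene is above background where its value tops the 95th percentile of 116 probe sets whose genes belong to other tissues, which lay between 3.05 and 4.13 on single arrays. Sensory axon genes (24) had a mean level of 7.14 to 9.26 on embryonic and 5.29 to 6.75 on adult arrays. Their median difference was -2.31, and 9 of them were lower in adult samples past the threshold. Above background on all arrays of the stage were 20 of 24 in embryonic and 11 of 24 in adult samples. Macrophage and leucocyte markers also separated the stages, with a mean level of 3.54 to 5.79 over 23 genes on embryonic and 6.53 to 8.25 on adult arrays, 12 of them higher past the threshold. In RNA from a whole compartment, a change in the number of cells or axons of a type and a change in RNA per cell cannot be told apart.

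**Figure D1:**
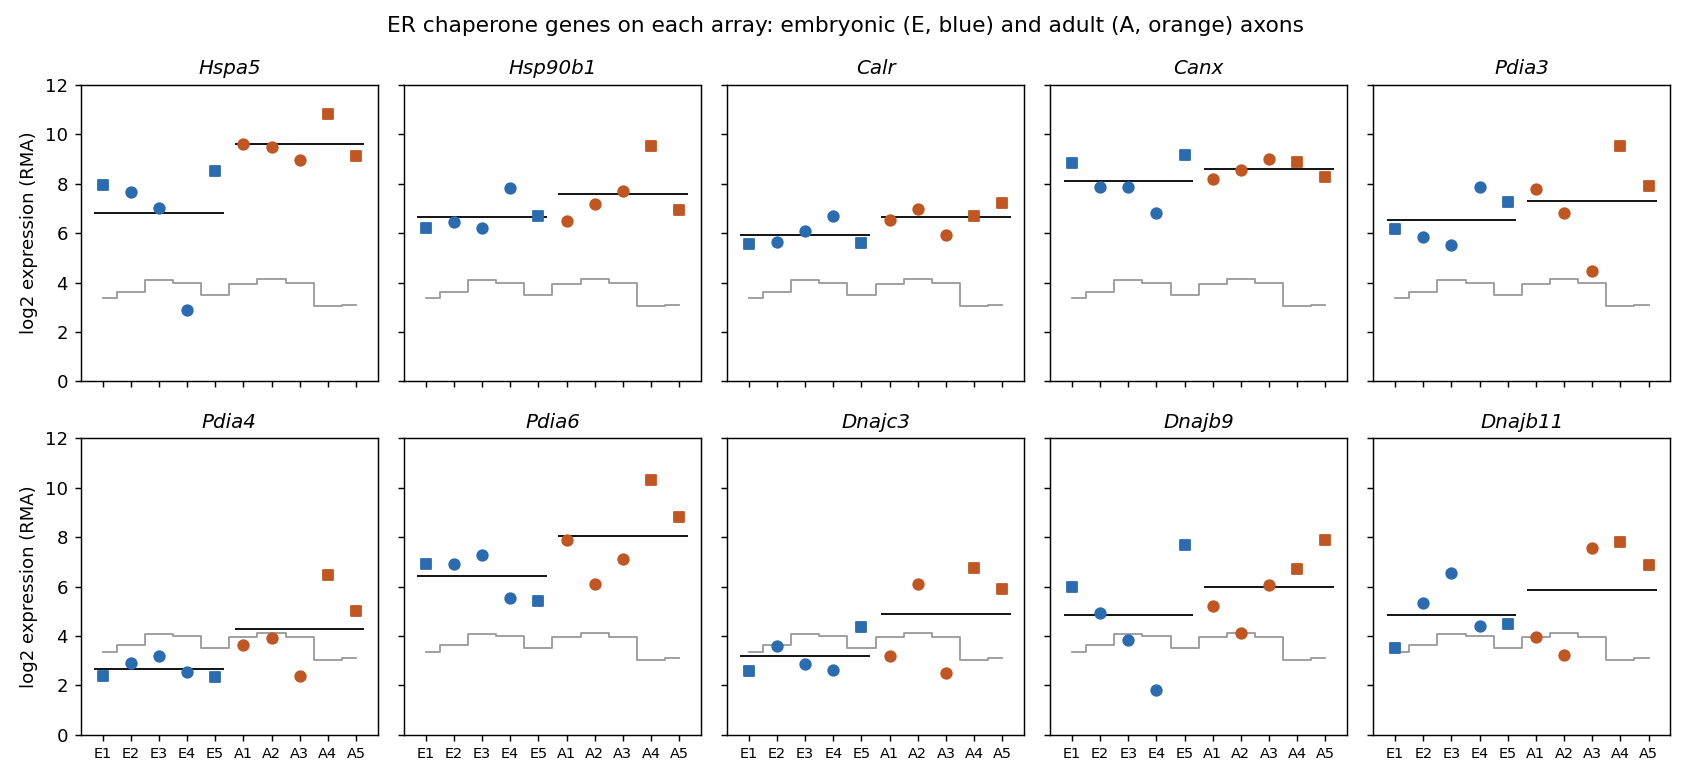
Log2 expression (RMA) of the 10 ER chaperone genes on each array, with embryonic replicates (E1 to E5, blue) and adult replicates (A1 to A5, orange); squares are arrays of wide spread, circles arrays of narrow spread, black bars stage means and the grey line the background level. The stages did not overlap for Hspa5 and overlapped for the other 9 genes, and adult replicate 4 held the highest value of 7 genes.

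Hspa5, the Hsp70 of the ER and the regulator that keeps the stress sensors inactive, had the largest difference of the 10. Its log2 values were 7.95, 7.66, 7.02, 2.88 and 8.52 on embryonic replicates 1 to 5 and 9.60, 9.49, 8.98, 10.83 and 9.14 on adult replicates 1 to 5. All 5 adult values were above all 5 embryonic ones, and embryonic replicate 4 stood far below the rest and under the background level of its array. The stage means were 6.80 ± 2.26 (SD, n = 5) and 9.61 ± 0.73, a difference of 2.80 ± 0.93 (SE), or 6.98-fold. The 95% confidence interval before adjustment was 0.74 to 4.87, and limma's adjusted p was 0.28. The exact permutation p was 0.0079, the smallest that 5 against 5 arrays can give. Stages that do not overlap with adult higher were found for 1 of the 10 genes and for 1.67% of all genes. Without embryonic replicate 4 the difference was 1.82 (limma adjusted p = 0.11).

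Hsp90b1, the Hsp90 of the ER, was above background on all 10 arrays. It measured 6.21, 6.44, 6.22, 7.83 and 6.68 on embryonic replicates 1 to 5, and 6.50, 7.16, 7.73, 9.52 and 6.93 on adult ones. Only adult replicate 4 lay above every embryonic value. The difference was 0.89 ± 0.55 (SE), with an interval of -0.33 to 2.12 (limma adjusted p = 0.70), and 0.40 without that array.

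The lectin chaperones Calr and Canx bind sugar chains on folding glycoproteins, and calreticulin also stores calcium in the ER lumen. Calr values were 5.55, 5.66, 6.10, 6.71 and 5.62 in embryonic and 6.52, 6.97, 5.93, 6.70 and 7.21 in adult samples. The ranges overlapped through embryonic replicate 4, its stage's highest, and adult replicate 3, its stage's lowest. The means were 5.93 ± 0.49 (SD, n = 5) and 6.67 ± 0.49, with a difference of 0.74 ± 0.32 (SE; interval 0.03 to 1.45; limma adjusted p = 0.48).

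Canx is covered by 3 probe sets, and these did not give the same size of difference. The one with the highest mean, which represents the gene, was at 8.82, 7.86, 7.88, 6.82 and 9.15 in embryonic and 8.19, 8.55, 9.01, 8.89 and 8.29 in adult samples. Its values overlapped widely, and the difference was 0.48 ± 0.42 (SE; limma adjusted p = 0.83). It was 0.16 without embryonic replicate 4 and 0.74 without embryonic replicate 5. The second probe set was at 4.97, 3.59, 6.23, 5.25 and 5.99 in embryonic and 8.37, 8.37, 5.17, 8.87 and 7.33 in adult samples. On this one 4 of 5 adult arrays were above every embryonic array, with a difference of 2.41 ± 0.72 (limma adjusted p = 0.21). The remaining one was above background on 2 arrays of each stage and differed by 0.59 (interval -0.62 to 1.80).

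Pdia3, the disulfide isomerase that works with calnexin and calreticulin, had the values 6.15, 5.83, 5.51, 7.88 and 7.26 in embryonic and 7.79, 6.83, 4.48, 9.51 and 7.90 in adult samples. Adult replicates 3 and 4 were the lowest and the highest of all 10 arrays, and the difference of 0.78 ± 0.83 (SE) had an interval of -1.06 to 2.61 (limma adjusted p = 0.88). That interval holds both 0 and the differences measured for the other genes except Hspa5. The difference was 0.22 without adult replicate 4 and 1.48 without adult replicate 3. The other Pdia3 probe set exceeded background on 2 embryonic arrays and 3 adult arrays and differed by 0.59.

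Pdia4, another disulfide isomerase, was not above background on any embryonic array. It was at 2.39, 2.93, 3.20, 2.55 and 2.34 in embryonic and 3.64, 3.91, 2.39, 6.48 and 5.03 in adult samples. Only adult replicates 4 and 5 exceeded the background level, so the gene was detected on 2 of 10 arrays. The measured difference was 1.61 ± 0.64 (SE; limma adjusted p = 0.40). Against the background level on the embryonic arrays the measured adult mean was 1.49-fold higher, although adult replicates 1 to 3 were themselves not above background. For that fold, each embryonic value under the background level was replaced by the level. The adult values were left as measured, so the fold is not a minimum. Without adult replicate 4 the measured difference was 1.06.

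Pdia6, a disulfide isomerase that also binds Hspa5, was well above background on every array. The values were 6.92, 6.93, 7.30, 5.53 and 5.41 in embryonic and 7.90, 6.09, 7.12, 10.32 and 8.83 in adult samples. Of the 5 adult values 3 were above every embryonic value, and 2 lay within the embryonic range. The means of 6.42 ± 0.88 (SD, n = 5) and 8.05 ± 1.62 differed by 1.63 ± 0.73 (SE; interval 0.01 to 3.25; limma adjusted p = 0.50), and by 1.07 without adult replicate 4.

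The DnaJ proteins deliver unfolded substrates to Hspa5 and start its ATP hydrolysis. Dnajc3, which also inhibits the stress kinase Eif2ak3 and related kinases, was at 2.58, 3.61, 2.86, 2.64 and 4.36 in embryonic and 3.19, 6.10, 2.52, 6.77 and 5.88 in adult samples. It exceeded the background level on 1 embryonic array and on 3 adult ones, and these 3 adult arrays were above all embryonic ones while the remaining pair were among the low values. The difference was 1.68 ± 0.81 (SE; interval -0.11 to 3.47; limma adjusted p = 0.55).

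Dnajb9, an Hspa5 partner induced by ER stress, was at 5.97, 4.94, 3.83, 1.81 and 7.69 in embryonic and 5.23, 4.11, 6.08, 6.72 and 7.87 in adult samples. Embryonic replicate 4 was again the lowest, and embryonic replicate 5 was higher than 4 of the 5 adult arrays. The difference was 1.15 ± 1.03 (SE; limma adjusted p = 0.84), and it went from 0.39 without embryonic replicate 4 to 1.86 without embryonic replicate 5. Leaving out adult replicate 5 gave 0.69.

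Dnajb11, the co-chaperone that binds many secreted substrates directly, had embryonic values of 3.53, 5.35, 6.55, 4.41 and 4.48 and adult values of 3.96, 3.22, 7.56, 7.79 and 6.87. The adult arrays fell into a high group of 3 and a low group of 2, and the latter were not above background. The difference was 1.02 ± 0.95 (SE; interval -1.08 to 3.12; limma adjusted p = 0.85). It was 0.54 and 0.60 without adult replicates 4 and 3, and 1.68 without adult replicate 2.

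**Figure D2:**
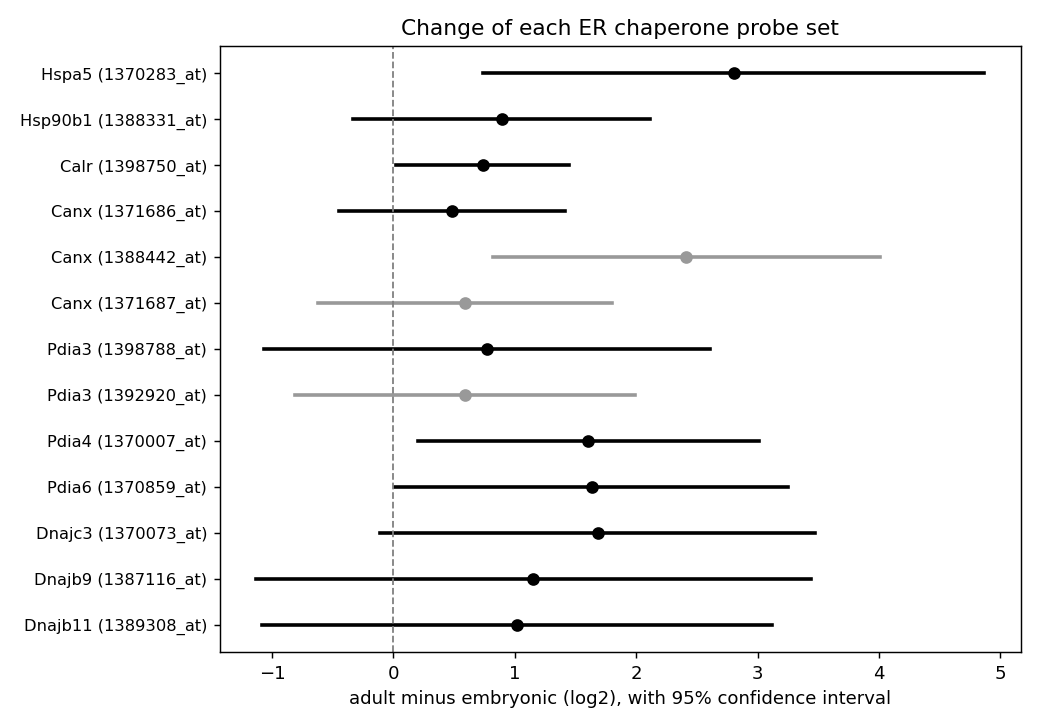
Adult minus embryonic difference (log2) of the 13 probe sets with 95% confidence intervals from limma before adjustment; black is the probe set that represents a gene and grey its other probe sets. All 13 estimates lie above 0, from 0.48 (Canx) to 2.80 (Hspa5), and 6 of the 10 genes have an interval that includes 0.

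Across the arrays the 10 genes did not move as a single block. Above background on all 5 arrays of a stage were 6 genes in embryonic and 6 in adult samples, and 5 of these, Hsp90b1, Calr, Canx, Pdia3 and Pdia6, were the same genes. Hspa5 was the sixth in adult and Dnajb11 the sixth in embryonic samples. Of all 14217 genes, 3900 in embryonic and 3139 in adult samples were above background on all 5 arrays of the stage. Adult replicates 4 and 5 had 10 of 10 genes above background, and embryonic replicate 4 had the fewest, 6. Of all genes, 64.7% and 65.8% were above background on adult replicates 4 and 5, against 36.6% to 42.8% on adult replicates 1 to 3 and 41.2% on embryonic replicate 4. Adult replicate 4 held the highest value of Hspa5, Hsp90b1, Pdia3, Pdia4, Pdia6, Dnajc3 and Dnajb11, and adult replicate 5 that of Calr and Dnajb9. Only Canx was highest on an embryonic array, replicate 5. The mean over the 10 genes was 4.90 to 6.15 on embryonic arrays, 6.18 to 6.25 on adult replicates 1 to 3, 8.35 on adult replicate 4 and 7.40 on adult replicate 5. The mean over all genes was also highest on that pair of arrays, at 4.52 and 4.54, and was 3.97 to 4.08 on adult replicates 1 to 3.

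Because the pair of adult arrays with the highest chaperone values are also arrays of wide spread, the difference was computed within each kind of array. Within the 4 arrays of wide spread the median difference of the 10 genes was 1.89 and 9 were above 0, and within the 6 of narrow spread it was 0.44 and 8 were above 0. Over all genes the median was 0.02 with 51.6% above 0 in the wide arrays, and -0.05 with 46.6% in the narrow ones. Hspa5 differed by 1.75 within the wide and 3.51 within the narrow arrays. Pdia6 differed by 3.41 and 0.45, Pdia4 by 3.39 and 0.42, Dnajc3 by 2.86 and 0.90, and Dnajb11 by 3.33 and -0.52. Canx went the other way, with -0.40 within the wide and 1.07 within the narrow arrays. A test of the difference between the wide and the narrow arrays (the interaction of stage and spread in limma) passed for 0 of 10 genes after adjustment, and for 0.0914% of all genes. The lowest adjusted p was 0.23, for Pdia4, and 3 genes, Pdia4, Pdia6 and Canx, had an unadjusted limma p under 0.05, as did 12.9% of all genes.

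**Figure D3:**
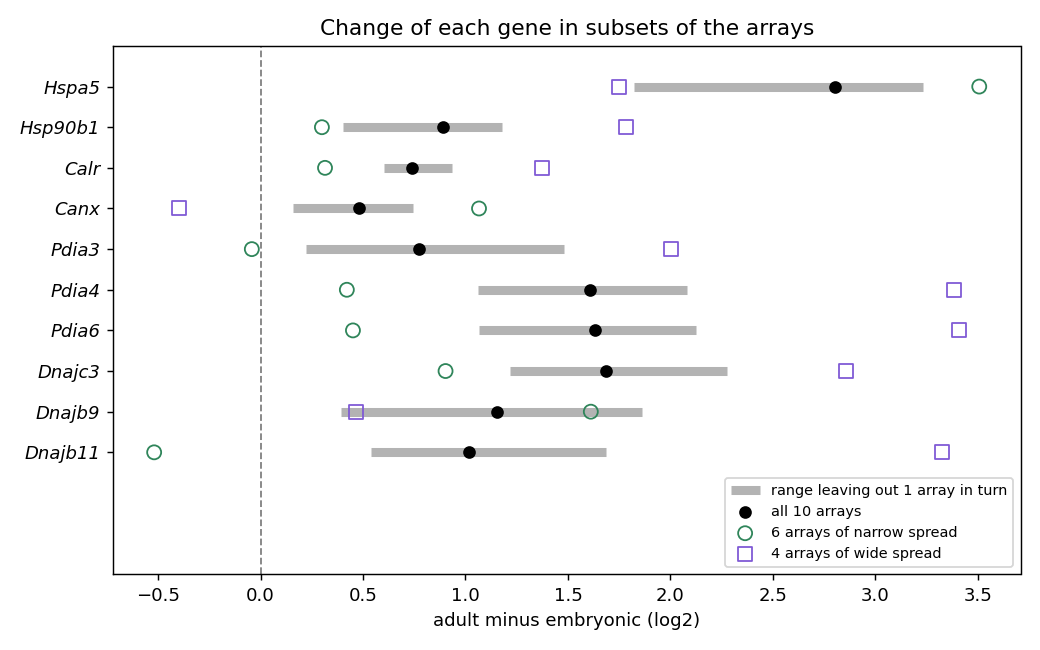
Adult minus embryonic difference (log2) of each gene over all 10 arrays (black), within the 6 arrays of narrow spread (green circles) and the 4 of wide spread (purple squares), with the range over leaving out 1 array in turn (grey bars). The differences over 9 arrays all stay above 0, while Canx lies below 0 in the wide arrays and Pdia3 and Dnajb11 in the narrow ones.

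Markers of other cells were set beside these values, since ER chaperones are abundant in secretory cells such as fibroblasts. Fibroblast markers (20 genes) had a mean level of 3.77 to 5.08 on embryonic arrays, 3.31 to 5.01 on adult replicates 1 to 3, 6.08 on adult replicate 4 and 5.57 on adult replicate 5, and 0 of 20 passed the threshold. Satellite glial markers (13 genes) were at 4.34 to 4.80 on embryonic arrays, at 4.10 to 5.21 on adult replicates 1 to 3 and at 5.51 and 5.90 on adult replicates 4 and 5. The 2 adult arrays with the highest chaperone values were thus also the highest in fibroblast and satellite glial markers, and in the mean over all genes. Schwann cell markers (17 genes) were at 4.14 to 4.61 on embryonic arrays, and adult replicates 4 and 5 held the lowest and the highest level of all arrays, 3.82 and 5.70. For endothelial markers (13 genes) the levels were 3.00 to 3.53 and 3.15 to 3.78, with Pecam1 not above background on any array. Nuclear factors of sensory neurons (19 genes), a marker of cell bodies, were at 3.87 to 4.38 and 3.29 to 4.43. Among them Isl1, Runx1, Etv1, Maf and Klf7 were above background on all 10 arrays, and Neurod1, Neurog1, Neurog2 and Tlx3 on none. Which cells the RNA of these factors came from was not tested. Of the defining markers, Fbln1 of fibroblasts, Foxd3 of Schwann cells and Aqp4, Cadm4, Cdh6, Kcnj10 and Slc1a2 of satellite glia were not above background on any array. Other markers of the same cells were present: Pmp22 and Mbp of Schwann cells and Glul and Vim of satellite glia were above background on all 10 arrays. The fibroblast proteoglycan Dcn reached 10.84 and 10.21 on adult replicates 4 and 5, and Lum 9.28 and 8.94. Dcn was also at 9.30 on adult replicate 3. Col1a1 of the same list was at 4.54 and 4.64 on adult replicates 4 and 5 and at up to 8.85 on embryonic arrays. Of the 20 fibroblast markers, 10 had a difference above 0. The highest macrophage level, 8.25, was also on adult replicate 4, but adult replicate 5 had the lowest of the adult arrays, 6.53. The part of these cells in the chaperone values was not tested.

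The other genes of the ER, 210 in 7 lists, were split in direction. In all, 0 passed the threshold as higher and 2 as lower in adult samples, 125 of 210 had a difference above 0, and their median was 0.17. Of all genes 0.612% passed as higher and 0.647% as lower, and 49.9% had a difference above 0. Among 46 other ER chaperones and disulfide isomerases 0 passed by limma in either direction, 29 had a difference above 0 and the median was 0.17. At an unadjusted limma p under 0.05 there were 5, all higher in adult samples, against 6.28% of all genes in that direction. The one with the lowest p was Sil1, the nucleotide exchange factor of Hspa5, at 3.22 ± 0.48 (SD, n = 5) in embryonic and 4.56 ± 0.73 in adult samples (limma adjusted p = 0.18). Sil1 was not above background on any embryonic array and was above it on 4 of 5 adult arrays. The measured adult mean was 1.80-fold higher against the background level on the embryonic arrays. Hyou1, a large Hsp70 relative of the ER, was at 4.58 ± 0.42 and 4.74 ± 0.61, and the disulfide isomerase P4hb at 7.46 ± 1.00 and 8.30 ± 1.85. The neurotrophic ER stress protein Manf was at 5.27 ± 0.91 and 6.97 ± 1.19 (limma adjusted p = 0.33). These 3 genes were named for their role after their values were seen.

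Proteins enter the ER through the Sec61 channel, and this step did not differ past the threshold either. Of 32 translocation and signal peptide genes 0 passed by limma, with 3 higher at an unadjusted p under 0.05 and a median difference of 0.29. At that unadjusted limma p, 6.28% of all genes were higher and 997 of 14217 lower in adult samples. Tram1, a membrane protein at the channel, had the lowest p, at 5.28 ± 1.99 (SD, n = 5) and 8.18 ± 1.52 (limma adjusted p = 0.29), and its other probe set differed by 2.15. Of 29 N-glycosylation genes 0 passed by limma, with 2 lower at an unadjusted p under 0.05 and a median of 0.23. Dpm2, a subunit of dolichol-phosphate mannose synthase, measured 7.0 ± 0.59 on embryonic and 5.14 ± 1.40 on adult arrays (limma adjusted p = 0.27). Of 30 genes of ER-associated degradation, which removes misfolded proteins, 0 passed by limma, with 5 higher at an unadjusted p under 0.05 and a median of 0.26. Erlin1, which takes part in the degradation of calcium channels of the ER, was at 3.76 ± 0.94 and 6.32 ± 1.19 (limma adjusted p = 0.10).

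The list of the unfolded protein response holds its sensors and transcription factors and also targets and cell death genes, and it gave no common direction. At an unadjusted limma p under 0.05, 3 of its 32 genes were higher and 3 lower, against 6.28% and 997 of 14217 of all genes. Past the threshold 0 rose and 1 fell, against 0.612% and 0.647% of all genes. A difference above 0 was found for 15 of 32, and the median was -0.05. The gene that fell, on the probe set that represents it, was Sesn2, a stress-induced regulator of growth signalling. It was at 6.63, 5.33, 6.13, 6.60 and 6.55 in embryonic and 3.46, 4.00, 3.41, 4.29 and 4.21 in adult samples. Its stages did not overlap, and the difference was -2.37 ± 0.32 (SE; limma adjusted p = 0.0074), with 2 of 5 adult arrays above background. The other probe set of Sesn2 did not show this fall and differed by 0.24 (limma adjusted p = 0.92). Xbp1, whose spliced form drives many chaperone genes, was at 5.55 ± 1.36 (SD, n = 5) in embryonic and 6.30 ± 1.84 in adult samples (limma adjusted p = 0.90). Atf6, which binds the element shown above, was at 5.43 ± 0.71 and 5.80 ± 1.37 (0.94), and Atf4, the factor of the Eif2ak3 branch, at 7.37 ± 0.68 and 6.64 ± 1.98 (0.89). Ddit3, its target in prolonged stress, was at 6.11 ± 2.16 and 4.90 ± 1.51 (limma adjusted p = 0.83). These 4 were named for their role after their values were seen. The arrays measure total Xbp1 RNA here and do not show its splicing or the cleavage of Atf6.

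Among genes that shape the ER, 1 differed between the stages past the threshold. Of 21 genes, 0 rose and 1 fell past it, against 0.612% and 0.647% of all genes, and the median was -0.19. At an unadjusted limma p under 0.05, 3 were higher and 3 lower, against 6.28% and 997 of 14217 of all genes. Rtn2, a reticulon of tubular ER, was at 6.50, 6.15, 5.53, 7.06 and 6.17 in embryonic and 3.90, 3.31, 3.69, 3.98 and 4.68 in adult samples. These ranges did not overlap, and the difference was -2.37 ± 0.34 (SE; limma adjusted p = 0.010), with 2 of 5 adult arrays above background. The 24 sensory axon genes had a median difference of -2.31, and a link between the 2 was not tested. Rtn1, a neuronal reticulon named after its values were seen, was at 9.62 ± 1.30 (SD, n = 5) and 6.15 ± 1.74 (limma adjusted p = 0.11). Of 20 ER calcium genes 0 passed by limma and 1 was higher at an unadjusted p under 0.05, the calcium sensor Stim1, at 3.98 ± 0.27 and 5.01 ± 0.96 (limma adjusted p = 0.43). The other 2 probe sets of Stim1 differed by 0.54 and 0.21 (limma adjusted p = 0.70 and 0.96).

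**Figure D4:**
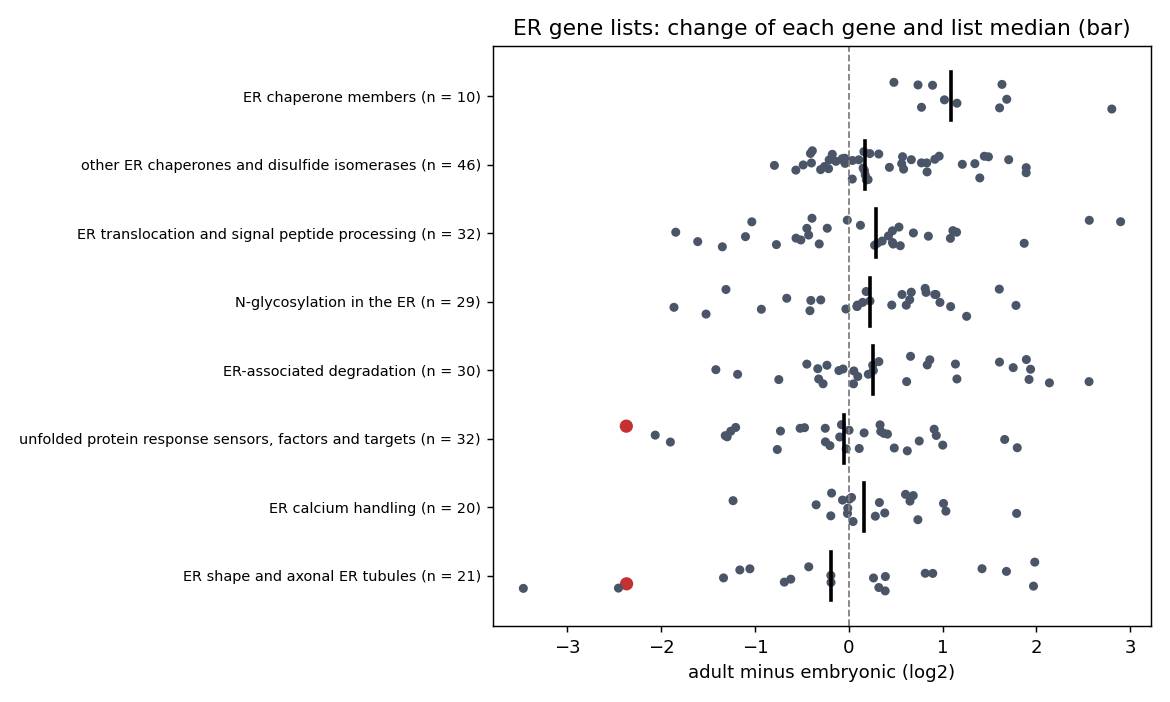
Adult minus embryonic difference (log2) of every gene of the 10 ER chaperones and of 7 other ER lists, with black bars at the list medians and red points for the 2 genes past the threshold (Sesn2 and Rtn2). The 10 chaperones all lie above 0 with a median of 1.09, while the medians of the other lists lie between -0.19 and 0.29.

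Of 179 other ER genes with a promoter window, 3 held the stress element (Creld2, Ero1b and Xbp1) and 2 held the shorter variant (Herpud1 and Hyou1). These 5 genes did not pass the threshold, with differences of 1.89, 1.21, 0.75, 0.21 and 0.16 in that order (lowest limma adjusted p = 0.48, Creld2). The other sequence of the response, TGACGTGG, was in 9 of the 179, Hyou1 among them, and in 0.674% of protein-coding genes.

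The genes with profiles most like that of Hspa5 over the 10 arrays were not the other chaperones. By Pearson r they were the lysosomal protease Ctsb (0.98), the peroxiredoxin Prdx5 (0.96), the endosomal protein Ankfy1 (0.95), the methionyl-tRNA synthetase Mars1 (0.95) and the calpain subunit Capn2 (0.94). All 5 had their lowest value on embryonic replicate 4 and their highest on adult replicate 4, as Hspa5 did. A single low array can weigh heavily in Pearson r and less in the rank correlation (Spearman rho). By rho Mars1 (0.99), Ctsb (0.96) and Prdx5 (0.92) stayed close to Hspa5, while Ankfy1 (0.75) and Capn2 (0.67) were less close. Among the chaperones Pearson r with Hspa5 ranged from 0.10 (Calr) to 0.80 (Canx), and rho from 0.14 (Dnajb11) to 0.59 (Dnajc3). Canx and Dnajb9 were also lowest on embryonic replicate 4, and their rho was 0.50 and 0.54. These values are a description of 10 arrays that share a stage difference, and none of the 5 genes passed the threshold between stages.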

How the data were processed

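By the labels each stage has 5 biological replicates. No label says that they came from separate cultures or animals, so p-values measure only the spread between these samples. Per the submitters' processing notes, the authors used RMA (robust multi-array average) to make the deposited log2 values. Neither its version nor its options, nor whether all 10 arrays went through it together, are given in the sources used here, and base 2 was inferred from the range. Array medians lay between 2.85 and 3.14 and standard deviations between 1.49 and 2.07. RMA shrinks differences between weak probe sets, which makes a fold near background too small. Precision is limited by how many arrays there are.

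Of 31099 probe sets, 57 controls were left out. The platform annotation gives 20826 a single symbol and 436 several, and 9780 have no name here. RefSeq's GRCr8 gene table held the gene numbers of 20764 of the former, and 0 symbols were different there. Each gene stands for its probe set of highest mean. No pseudocount and no filter were applied. The comparison was made with limma 3.58.1 under R 4.3.3, by lmFit and eBayes on the 10 arrays with no covariates, two-sided. Exact permutation tests enumerate all labellings and are two-sided. The fit was tested on simulated data. Python 3.11.15 with pandas 2.3.3 served for the summaries and matplotlib 3.10.9 for the figures.

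The members and lists were chosen with earlier results of these data known. Named genes were all members, then from each other ER list up to 4 genes past the threshold or else the one with the lowest p, and the 5 genes most like Hspa5. Each marker list gave up to 3 genes past the threshold. These were Adgre1, Lyz2 and Fcgr2b of macrophages (differences of 6.69, 6.69 and 6.04) and Kif5c, Kif5a and Mapt of sensory axons (-5.32, -5.20 and -5.05). Alternatives were other scalings, a filter on weak probe sets, other variance models, weights for arrays, a block for the replicate number, other gene summaries, other background levels, the spread of the arrays and the omission of each array.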

Additional observations from a re-analysis of the deposited data

Results flagged for a closer look

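The Hspa5 value of embryonic replicate 4, 2.88 on the log2 scale, lay far below the other 4 embryonic arrays, of which the nearest was 7.02. The gap was 0.73 of the whole range of the stage, above the critical value of 0.71 for 5 samples. It was the only such value among 26 groups of 5 checked (13 probe sets in both stages), and chance alone gives about 1 in 20. Canx (6.82) and Dnajb9 (1.81) were also lowest on this array, while Hsp90b1 (7.83), Calr (6.71) and Pdia3 (7.88) were at their highest embryonic value there. The cause was not tested.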

How the results depend on the processing

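The count of chaperone genes past the threshold stayed at 0 of 10 under all fits run, with 8 genes left (Pdia4 and Dnajc3 removed) under the filter on weak probe sets. Over 231 gene-level alternatives the direction turned in 3. Within the arrays of wide spread Canx differed by -0.40, and within those of narrow spread Pdia3 by -0.042 and Dnajb11 by -0.52. The median difference moved to 1.89 in the 4 wide arrays, and with 1 array left out it lay between 0.85 and 1.5. The other ER genes past the threshold numbered 5 of 166 with the filter (4.1% of all genes passed there), 1 with trend and robust variance, 0 of 210 by limma in the 4 wide arrays (where 0 of all 14217 genes passed), and 2 to 4 with 1 array left out (4 without adult replicate 5). With the replicate block 0 of 10 chaperones and 2 other ER genes passed and Hspa5 had a limma adjusted p of 0.38. Same-numbered arrays deviated with correlations between -0.12 and 0.28, the highest for replicate 5. So few correlations cannot decide whether the numbers pair the arrays. The adjusted p of Hspa5 ran from 0.11 to 0.47 over its alternatives. Cause was not tested. Signal over background limits Pdia4, Dnajc3 and the weakest Canx probe set.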
